A study of Mus musculus with 2 samples.

Results

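Enzymes that process drugs, dietary toxins and other foreign compounds were examined in TR1 cell samples (type 1 regulatory T cells, CD4 T cells that make IL-10) from the mouse small intestine. The members are all genes named by 1 symbol on the array that belong to the cytochrome P450 families CYP2, CYP3 and CYP4, the UDP-glucuronosyltransferases (UGT), the cytosolic and kappa-class glutathione S-transferases (GST), the sulfotransferases (SULT) and the carboxylesterases CES1 and CES2. This gave 122 genes among 19937 named genes, from 123 probe sets, and only Gstm3 had 2 of them. One sample, called impaired here, came from CD4-DNIL-10R transgenic mice, in which the labels describe the IL-10 receptor alpha chain as impaired. The other sample, called wildtype, came from mice without that transgene. Every mouse had been given 15 μg of anti-CD3 antibody intraperitoneally in 2 doses, a day left between them, with an end point of 4 or 48 hours. Neither sample is assigned a time, and animal numbers and sorting are not described in the labels. The transgene encodes a dominant-negative receptor driven by Cd4, so its expression is directed to T cells and not to epithelium. Il10ra itself was at 12.30 impaired and 9.92 wildtype, and whether its probe set also detects the transgene was not tested. Each group is 1 Affymetrix array. All values are log2 RMA signals of single arrays, there is no replicate error, and no difference was tested.

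Foreign compounds are cleared in steps. Cytochromes P450 oxidise them and carboxylesterases split their esters, after which UGT, GST and SULT enzymes attach glucuronic acid, glutathione or sulfate, so that transporters can export the product. The liver holds the widest set of these enzymes. Enterocytes, the absorptive cells of the gut lining, carry a set of their own as the first barrier to swallowed compounds. T cells are not known as a main site of this chemistry. From this background knowledge 33 members were classed as intestinal (made by the small intestinal epithelium, with or without the liver), 40 as liver-restricted (made mainly by liver, some also by kidney, and not known from small intestine) and 49 as other. Earlier results of these data were known when the classes were set, so the comparison of classes is not independent of the data.

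The intestinal enzyme genes were brighter in the impaired sample, and the liver-restricted ones were dim in both samples and differed little. The median difference (impaired minus wildtype, log2) was 0.50 over the 33 intestinal members, a 1.42-fold higher signal, and -0.06 over the 40 liver-restricted members. It was 0.15 over the 49 others, 0.13 over all 122 members, and 0.01 over all 19937 named genes. Of the intestinal members 32 were above 0 and 1 below, whereas 15 of the liver-restricted members were above 0 and 25 below. Over all 19937 named genes 10274 were above 0 and 9491 below, the share to set beside each such count that follows. Among the 9183 whose mean lay below the median probe set of the array, 4962 were above 0 and 4090 below. The 2 class medians lay 0.57 apart. Genes of a class share samples, cells and often sequence, so these are descriptions of 2 arrays and not a test.

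Counted by size, 6 of the 122 members were at least 2-fold brighter in the impaired sample, all of them intestinal, and 0 were 2-fold dimmer. The intestinal class holds 21 members also made by liver, with 5 of the 6, and 12 classed as mainly intestinal, with 1 (Sult1d1). Median differences were 0.49 over those 21 and 0.54 over those 12. Among all named genes 0.828% were 2-fold brighter and 0.191% 2-fold dimmer. With a 1.5-fold line, 20 members were brighter and 1 was dimmer, against 3.58% and 1.8% of all named genes. The 20 comprised 14 intestinal members, 6 others and 0 liver-restricted members. The single member below the line was Cyp2c39, a liver P450, at 4.80 in the impaired sample and 5.45 in wildtype.

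**Figure D1:**
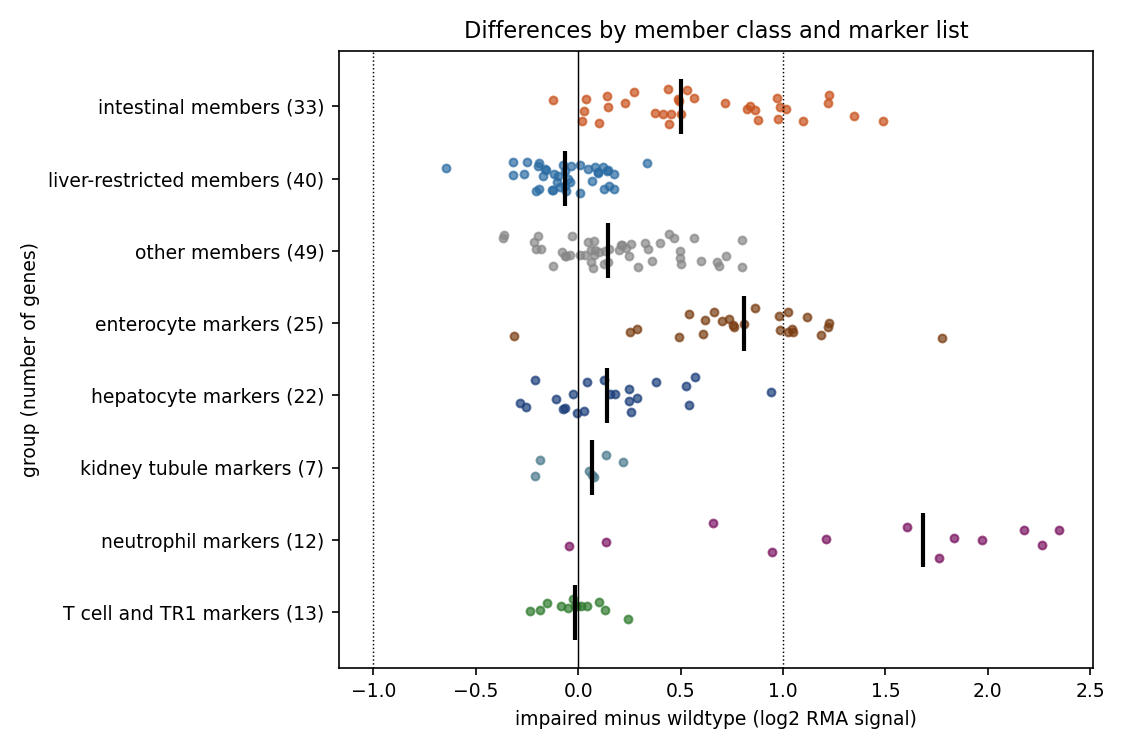
Each point is the difference of 1 gene (impaired minus wildtype, log2 RMA signal), in rows by member class or marker list; black bars are medians and dotted lines mark 2-fold. The intestinal members (median 0.50) lie toward the enterocyte markers (0.81), while the liver-restricted members (-0.06) and the T cell and TR1 markers (-0.02) are centred near 0.

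Markers of enterocytes and of other cell types were read in the same samples. Of 25 enterocyte markers on the array, 24 were above 0 and 9 were 2-fold brighter, with median signals of 10.80 in the impaired sample and 9.95 in wildtype (median difference 0.81). Sis, the brush-border enzyme sucrase-isomaltase, had the largest difference of them (1.77), at 10.80 in the impaired sample and 9.03 in wildtype, and 23 of the 25 lay above the median probe set of the array (6.91). The 13 measured T cell and TR1 markers differed by between -0.23 and 0.24, with Il10 at 12.92 in the impaired sample and 12.94 in wildtype. Most hepatocyte markers were dim, with medians of 5.78 in the impaired sample and 5.75 in wildtype, and 14 of 22 were above 0 (median difference 0.14, 0 past 2-fold). Tat, a tyrosine aminotransferase, was bright and differed most, at 9.01 in the impaired sample and 8.07 in wildtype, followed by Hp (0.57), Trf (0.54) and Hpd (0.53). Alb, at 5.66 in the impaired sample and 5.94 in wildtype, and 18 others of the 22 measured lay below the median probe set on average. Kidney tubule markers had medians of 6.01 in the impaired sample and 6.06 in wildtype. Among other cells of the tissue, all 12 goblet and Paneth cell markers were above 0 (median 0.88, 4 past 2-fold), and neutrophil markers had a median of 1.68, with 8 of 12 past 2-fold brighter. Pancreatic acinar markers had a median of -1.44, with 8 of 12 past 2-fold dimmer in the impaired sample. Medians were 0.54 over 11 B cell markers, 0.20 over 12 of macrophages and monocytes, and 0.11 over 10 of stroma and endothelium. The part of RNA from these other cells in the enzyme values was not tested, and in bulk samples fewer cells of a type cannot be told apart from less RNA per cell.

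Differences were also set beside the signal of each member. Of the 33 intestinal members 22 had a mean of both samples at or above the median probe set. They had a median of 0.83 and hold the 6 that passed 2-fold, against 1.41% of the 10754 named genes at such signals, and the 11 dimmer ones had a median of 0.23. Of the 22, 4 (Ces2g, Cyp2b10, Sult1b1 and Cyp2c65) lay below the median probe set in wildtype and passed it only through their brighter impaired signal. The difference therefore helped to choose the 22, and nothing is read from their count or median. Only 1 of the 40 liver-restricted members, Cyp2d40, reached the median probe set, at 7.04 in the impaired sample and 7.10 in wildtype. Across the 122 members signal and difference had a Pearson r of 0.63 and a Spearman rho of 0.66, against -0.02 and -0.04 across all named genes. These values share arrays and probe backgrounds. RMA also shrinks differences of dim probe sets, so the small differences of dim members do not show that their transcripts were equal.

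**Figure D2:**
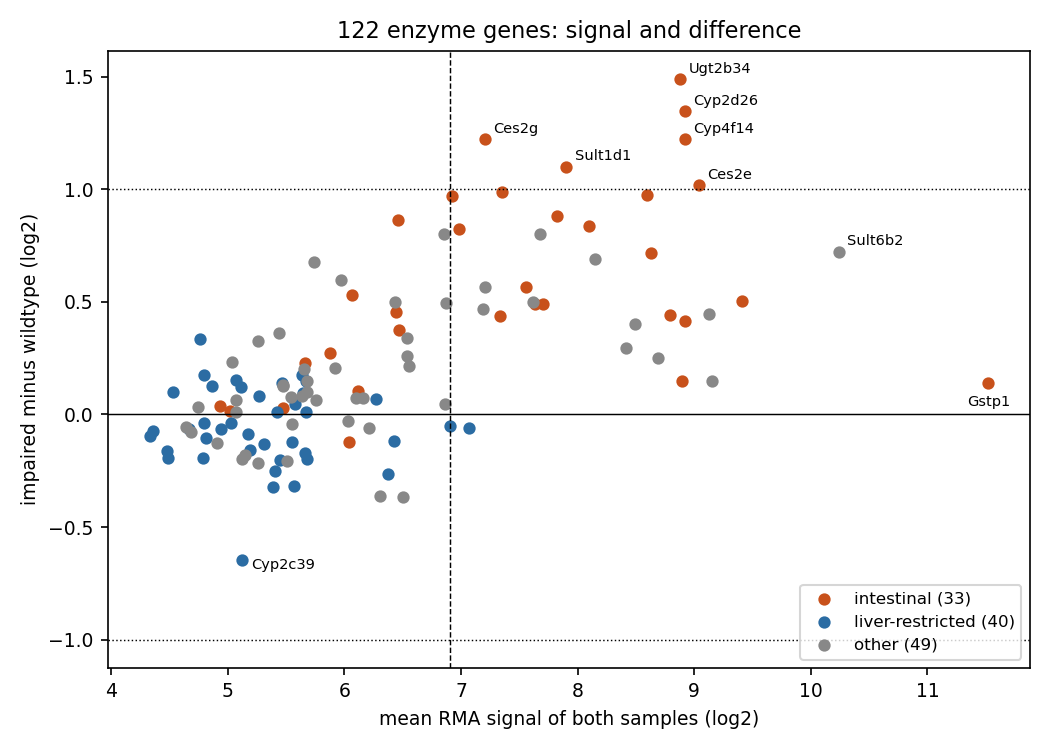
Each point is 1 of the 122 members, with the mean RMA signal of both samples (log2) across and the difference impaired minus wildtype (log2) upward; colours give the class, dotted lines 2-fold and the dashed line the median probe set (6.91). The 6 members past 2-fold are intestinal and lie right of the dashed line, and 39 of 40 liver-restricted members lie left of it. Of the 6, Ces2g passes the line only through its impaired signal (6.59 in wildtype).

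Among the P450 enzymes of family CYP2, a large family of drug and steroid oxidases, the pattern rested on a few members. Cyp2d26 had a signal of 9.59 in the impaired sample and 8.25 in wildtype, a 2.54-fold difference. Cyp2c65, an intestinal P450 that oxidises arachidonic acid, was at 7.84 impaired and 6.85 wildtype, and Cyp2b10, the classic target of the xenobiotic receptor CAR, at 7.40 impaired and 6.43 wildtype. Both were close to 2-fold (1.98 and 1.96). The intestinal members Cyp2s1 (7.84 impaired and 7.27 wildtype) and Cyp2c66 (7.95 impaired and 7.45 wildtype) and the dimmer Cyp2j6 (6.67 impaired and 6.22 wildtype) differed by 0.57, 0.49 and 0.46. Cyp2c55 and Cyp2c29, also classed as intestinal, were dim and nearly equal, at 5.02 and 5.49 in the impaired sample and at 5.01 and 5.46 in wildtype. Of all 45 CYP2 members the median difference was 0.07, and the 19 liver-restricted ones had -0.04. Cyp2e1, the ethanol-oxidising P450 of the liver, was at 5.13 in the impaired sample and 5.22 in wildtype.

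CYP2 members outside both classes stayed near 0, with a median of 0.07 over 18. The largest difference of these was that of Cyp2d22 (0.57), at 7.49 in the impaired sample and 6.92 in wildtype. Cyp2r1, a vitamin D 25-hydroxylase, was at 6.67 in the impaired sample and 6.41 in wildtype. Cyp2b23 had the lowest difference of the 18, at 6.32 impaired and 6.69 wildtype.

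Family CYP3, which in people includes the main drug-oxidising enzyme of liver and gut, had 6 members. Cyp3a13 was at 9.08 in the impaired sample and 8.11 in wildtype, a 1.96-fold difference. Cyp3a25 (7.55 impaired and 7.12 wildtype) and Cyp3a11 (6.65 impaired and 6.28 wildtype) differed by 0.44 and 0.38. The 3 remaining members, Cyp3a16, Cyp3a44 and Cyp3a57, lay between 4.64 and 5.37 in both samples and differed by at most 0.13 in size, each dimmer in the impaired sample. Cyp3a11, Cyp3a25, Cyp3a44 and Cyp3a57 have near-identical relatives, and further probe sets carry several of these names at once, so the signal of each is uncertain.

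Family CYP4, which adds hydroxyl groups to the ends of fatty acids and eicosanoids, split by subfamily. All 9 CYP4F members were above 0 (median 0.40). Cyp4f14 led them, at 9.53 in the impaired sample and 8.31 in wildtype (2.33-fold), followed by Cyp4f40 (8.08 impaired and 7.28 wildtype) and Cyp4f16 (8.49 impaired and 7.80 wildtype). Cyp4f13 (8.69 impaired and 8.29 wildtype) and Cyp4b1 (9.35 impaired and 8.91 wildtype) differed less. Cyp4f18, which in mouse neutrophils breaks down the attractant leukotriene B4, was at 6.27 impaired and 5.67 wildtype. Both of its values lay below the median probe set, and which cells gave its signal was not tested. All 5 CYP4A members, fatty acid hydroxylases of liver and kidney, were slightly dimmer in the impaired sample, between -0.06 and -0.32, and their signals ran from 4.91 to 5.58 there and from 4.97 to 5.78 in wildtype.

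Carboxylesterases followed the same division. Ces2g was at 7.81 in the impaired sample and 6.59 in wildtype (2.33-fold), and Ces2e at 9.55 impaired and 8.53 wildtype (2.02-fold). The wildtype value of Ces2g lay below the median probe set, so the size of its difference is uncertain. Ces1f reached 8.26 in the impaired sample and 7.38 in wildtype, and the dimmer Ces1g 6.33 impaired and 5.80 wildtype. Ces2a, Ces2b and Ces1e, also classed as intestinal, differed by 0.23, 0.27 and 0.10 at signals of 5.55 to 6.16. The liver esterases Ces1b, Ces1c and Ces1d differed by -0.05, -0.20 and 0.14.

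Ugt2b34 had the largest difference of all members. It encodes a glucuronosyltransferase and was at 9.63 in the impaired sample and 8.14 in wildtype, a 2.81-fold difference, higher than those of 99.8% of all named genes. Ugt2a3 was at 6.89 in the impaired sample and 6.03 in wildtype, both below the median probe set. The 6 other UGT members differed by between -0.26 and 0.23, at signals of 4.95 to 6.24 in the impaired and 4.91 to 6.50 in the wildtype sample. Ugt2b5 is 1 of these 6 and also classed as intestinal, and was dim and nearly equal, at 4.95 impaired and 4.91 wildtype. UGT1 enzymes are not among the members, since their shared exons put them on probe sets with several names.

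Sulfotransferases differed among themselves. Sult1d1, which sulfates catecholamines, was at 8.45 in the impaired sample and 7.35 in wildtype (2.14-fold), and Sult1b1, which sulfates phenols and thyroid hormone, at 7.39 impaired and 6.57 wildtype (1.77-fold). Sult6b2, in neither class, was at 10.60 impaired and 9.88 wildtype (1.65-fold). By contrast Sult2b1, which sulfates cholesterol, was bright and nearly equal, at 8.97 in the impaired sample and 8.82 in wildtype. Sult1a1, at 5.98 impaired and 6.11 wildtype, was the 1 intestinal member below 0. Over all 16 SULT members the median was -0.06, and the 6 liver-restricted ones, from Sult2a3 to Sult5a1, lay between -0.16 and 0.15. Sult1c2 had the lowest difference of the family, at 6.12 impaired and 6.48 wildtype.

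The glutathione S-transferases had the highest median difference of the 7 families, 0.47, without any single large difference. This rank is over all members, and the family holds no liver-restricted ones. Over intestinal members alone the GST median was 0.489. It was higher in UGT (0.862), CES (0.531), CYP2 (0.530) and the 1 of CYP4 (1.222), and lower in SULT (0.485) and CYP3 (0.437). All 19 GST members were above 0, from 0.08 for Gsto2 to 0.84 for Gsta4, and 0 passed 2-fold. Gsta4, which detoxifies the lipid peroxidation product 4-hydroxynonenal, was at 8.51 in the impaired sample and 7.68 in wildtype. Of the mu class, Gstm3 was at 8.99 impaired and 8.27 wildtype, Gstm5 at 7.26 impaired and 6.45 wildtype, and Gstm1 at 9.01 impaired and 8.57 wildtype; the second probe set of Gstm3 differed by 0.90. Gstm4 was nearly equal, at 9.23 in the impaired sample and 9.08 in wildtype.

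The other classes of transferase differed less than Gsta4. Gsto1, an omega-class enzyme that also reduces dehydroascorbate, was at 9.66 in the impaired sample and 9.15 in wildtype. The theta-class Gstt1 (7.87 impaired and 7.39 wildtype) and Gstt3 (7.87 impaired and 7.37 wildtype) and the zeta-class Gstz1 (6.68 impaired and 6.18 wildtype), an isomerase of tyrosine breakdown, differed by 0.49 to 0.50. Gstk1, the kappa enzyme of mitochondria and peroxisomes, was at 9.13 impaired and 8.71 wildtype. Gstp1, the pi-class enzyme found in most tissues, was at 11.59 in the impaired sample and 11.45 in wildtype, a difference of 0.14. Gstp1 was counted as intestinal, also in the narrower intestinal class, although it is not particular to the gut. No member of the family was classed as liver-restricted, so it does not enter that side of the comparison.

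**Figure D3:**
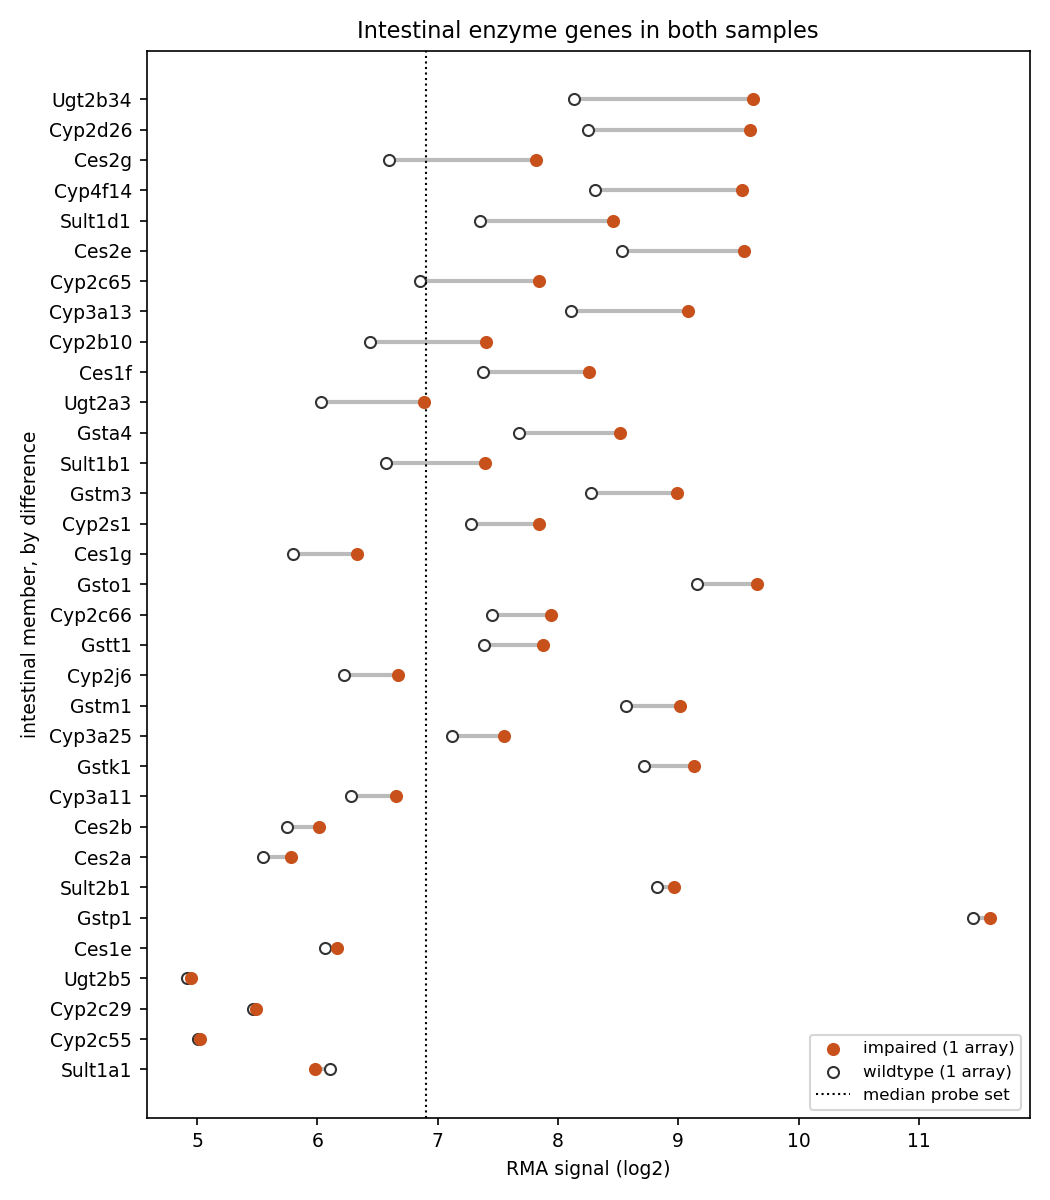
Filled points are the impaired sample and open points the wildtype sample (RMA signal, log2, 1 array each) for the 33 intestinal members, ordered by their difference; the dotted line is the median probe set. The filled point is to the right for 32 genes, furthest for Ugt2b34 (9.63 and 8.14), and to the left for Sult1a1.

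Many of these genes sit in tandem arrays, in which copies of 1 ancestral gene lie side by side, so intestinal and liver copies could be compared as neighbours. Of 13 CYP2C members in chromosomal order, Cyp2c65 and Cyp2c66 lay side by side between Cyp2c55 and Cyp2c29, with differences of 0.99 and 0.49, while the 9 liver-restricted members after Cyp2c29 lay between -0.65 and 0.18. Among 10 CYP2D members, Cyp2d26 stood at the end of the row with 1.35, beside Cyp2d40 with -0.06. Ugt2b34 (1.49) was followed by Ugt2b1 (-0.04), and Ugt2a3 (0.86) lay between Ugt2b37 (-0.26) and Ugt2b38 (0.05). In the CES2 row Ces2e (1.02) and Ces2g (1.22) flanked Ces2f (0.08). In the mu-class GST row all 7 members were above 0, from 0.15 for Gstm4 to 0.80 for Gstm5.

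**Figure D4:**
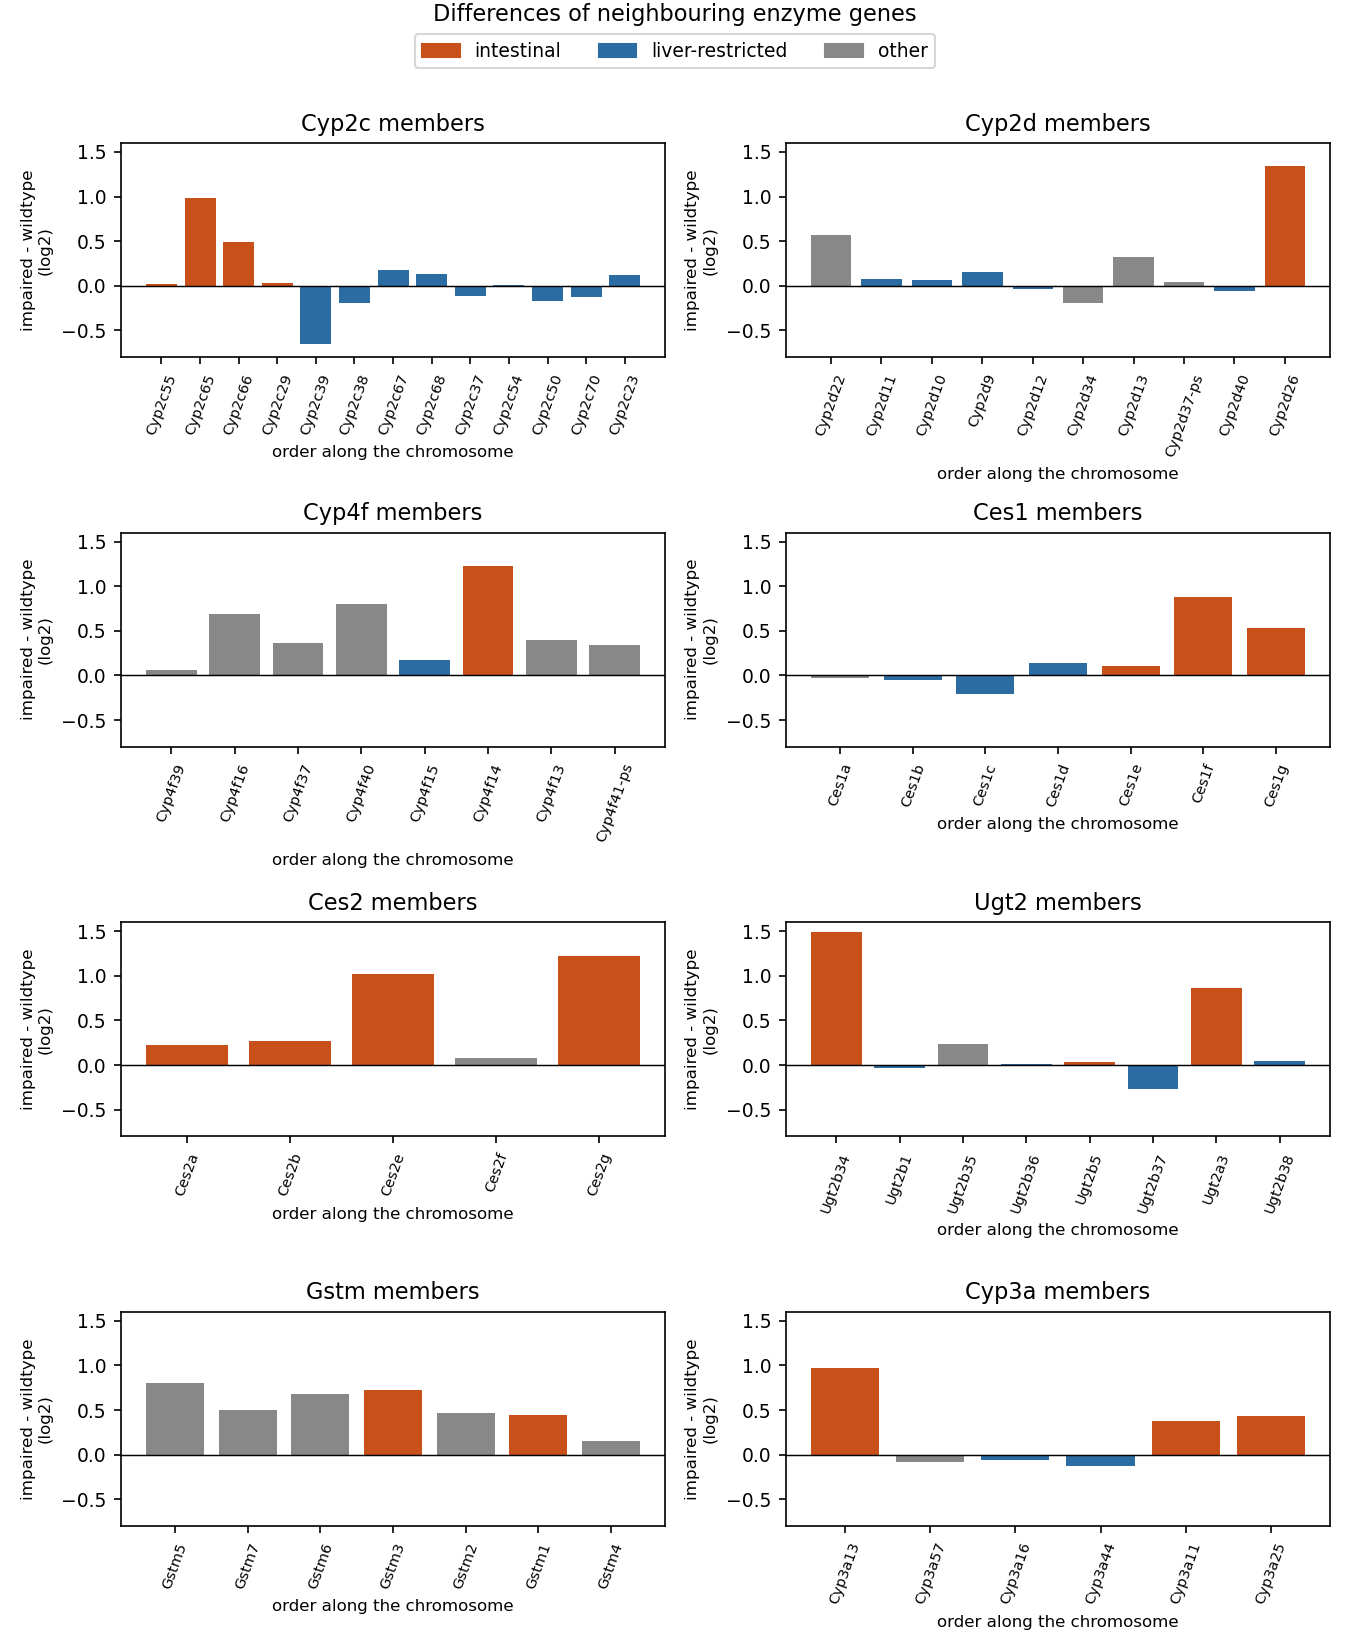
Bars are differences (impaired minus wildtype, log2) of members of 8 subfamilies, placed in their order along the chromosome with equal spacing and coloured by class. In the CYP2C, CYP2D and UGT2 rows 1 or 2 intestinal genes stand above the other bars, whereas all GSTM bars are above 0. Not all of those other bars are near 0, as with Cyp2c39 (-0.65), Cyp2d22 (0.57), Cyp2d13 (0.33) and Ugt2b37 (-0.26). The intestinal Cyp2c55 (0.02), Cyp2c29 (0.03) and Ugt2b5 (0.04) are themselves near 0.

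Promoter sequences were at hand from RefSeq (GRCm38.p6) for 100 of the 122 members, as windows from 250 bases before to 50 after the annotated start. They were searched on both strands for 4 short elements, of which a match is a description and not a binding site. The element CAAAGTCCA, the core bound by HNF4A, a nuclear receptor of liver and gut epithelium, was found in 7 of the 100 members, against 0.555% of 27025 genes. Among them were 3 of 30 intestinal members (Cyp2c65, Cyp3a11 and Sult1b1), 4 of 31 liver-restricted members (Cyp2c67, Cyp2c68, Cyp2c70 and Cyp3a16) and 0 of 39 others. All 7 lie on the strand of the gene, and 6 begin at positions -125 to -64 from the annotated start, while that of Sult1b1 begins at 25. Tandem copies share ancestry, so these are fewer than 7 independent cases. The elements with up to 25 bases on each side are shown because both classes carry the same letters; capitals mark the element, and each is written on the strand of its gene.
Cyp2c65 (intestinal), chr19:39060865-39060923, plus strand: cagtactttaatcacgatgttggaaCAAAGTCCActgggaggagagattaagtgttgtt
Cyp3a11 (intestinal), chr5:145879930-145879988, minus strand: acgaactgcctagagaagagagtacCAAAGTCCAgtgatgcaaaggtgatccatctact
Sult1b1 (intestinal), chr5:87536173-87536222, minus strand: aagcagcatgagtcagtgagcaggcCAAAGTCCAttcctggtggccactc
Cyp2c67 (liver-restricted), chr19:39649134-39649192, minus strand: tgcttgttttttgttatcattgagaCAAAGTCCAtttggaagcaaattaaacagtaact
Cyp2c68 (liver-restricted), chr19:39741145-39741203, minus strand: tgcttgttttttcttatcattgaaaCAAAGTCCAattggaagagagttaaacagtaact
Cyp2c70 (liver-restricted), chr19:40187317-40187375, minus strand: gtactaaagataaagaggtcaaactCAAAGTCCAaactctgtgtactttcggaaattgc
Cyp3a16 (liver-restricted), chr5:145469789-145469847, minus strand: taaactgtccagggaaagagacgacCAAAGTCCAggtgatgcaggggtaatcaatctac

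Members with the HNF4A element lay on both sides of 0. Cyp2c65, Sult1b1 and Cyp3a11 differed by 0.99, 0.82 and 0.38, and Cyp2c67, Cyp2c68, Cyp2c70 and Cyp3a16 by 0.18, 0.13, -0.12 and -0.065. A brighter probe set that names both Cyp2c67 and Cyp2c68 among several genes differed by -0.20, and one that names Cyp3a11 among several by -0.44. The direction of Cyp2c67, Cyp2c68 and Cyp3a11 is therefore uncertain. Ugt2b34, with the largest difference, held none of the 4 elements in its window. The other 3 elements were GCGTG, the xenobiotic response element core bound by the aryl hydrocarbon receptor (18 of 100 members and 35.2% of all genes), TGACNNNGC, the antioxidant response element core bound by NRF2 (9 members and 14% of all genes), and TTTATGG, a CDX element (4 members and 3.21%). GCGTG was in 7 of 30 intestinal, 1 of 31 liver-restricted and 10 of 39 other promoters. The whole windows of the member with the largest difference and of a pair of CYP2C genes from opposite classes follow, with matches in capitals; in Cyp2c65 the second match is the antioxidant core on the opposite strand. Cyp2c70 makes mouse bile acids in liver and was at 5.49 in the impaired sample and 5.61 in wildtype.
Ugt2b34, chr5:86906888-86907187, minus strand: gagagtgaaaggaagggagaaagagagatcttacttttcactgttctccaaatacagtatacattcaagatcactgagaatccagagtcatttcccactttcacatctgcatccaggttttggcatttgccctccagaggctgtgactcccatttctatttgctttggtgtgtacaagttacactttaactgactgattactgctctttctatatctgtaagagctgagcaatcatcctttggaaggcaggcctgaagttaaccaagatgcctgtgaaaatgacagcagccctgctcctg
Cyp2c65, chr19:39060756-39061055, plus strand: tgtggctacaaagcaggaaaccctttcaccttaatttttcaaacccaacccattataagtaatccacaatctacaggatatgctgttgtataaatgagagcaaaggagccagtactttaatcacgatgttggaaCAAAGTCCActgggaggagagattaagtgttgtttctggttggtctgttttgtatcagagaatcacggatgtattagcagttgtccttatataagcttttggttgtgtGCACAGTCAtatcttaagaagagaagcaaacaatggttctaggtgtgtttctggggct
Cyp2c70, chr19:40187237-40187536, minus strand: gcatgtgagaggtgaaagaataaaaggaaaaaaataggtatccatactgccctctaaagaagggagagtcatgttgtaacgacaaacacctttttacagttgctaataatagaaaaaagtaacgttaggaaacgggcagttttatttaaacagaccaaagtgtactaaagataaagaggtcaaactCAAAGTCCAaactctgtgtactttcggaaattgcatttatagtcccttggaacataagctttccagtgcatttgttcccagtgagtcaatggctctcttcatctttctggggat

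The regulators of these enzymes were next in the pathway. Of 15 xenobiotic receptors and partners measured, 11 were above 0, 1 was 2-fold brighter and 0 were 2-fold dimmer (median 0.39). Hnf4a passed 2-fold, at 10.06 in the impaired sample and 9.05 in wildtype. Nr1i2, the pregnane X receptor that induces CYP3A genes, was at 7.70 impaired and 6.95 wildtype, Nr1h4, the bile acid receptor, at 7.02 impaired and 6.29 wildtype, and Cdx1, a homeobox factor of gut epithelium, at 8.47 impaired and 7.75 wildtype. Ahr and Nfe2l2 (NRF2), which T cells also express, differed by 0.24 and 0.12. Of 7 targets of the aryl hydrocarbon receptor 5 were above 0 and 0 past 2-fold (median 0.15). Among them were Nqo1 (0.55, also an NRF2 target), Cyp1a1 (0.35), Tiparp (-0.22) and Ahrr (-0.29). Cyp1a1 was dim, at 5.475 in the impaired sample and 5.129 in wildtype. Of 13 NRF2 targets, 3 of them members, 11 were above 0 and 0 past 2-fold (median 0.40).

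Enzymes of the same steps outside the named families were set beside the median difference of all named genes, 0.01. Of 32 other oxidising and hydrolysing enzymes 26 were above 0, with 1 past 2-fold brighter and 0 past 2-fold dimmer (median 0.23). Adh1, an alcohol dehydrogenase, was at 10.78 in the impaired sample and 9.42 in wildtype, and Ephx2, soluble epoxide hydrolase, at 8.29 impaired and 7.38 wildtype. Of 19 other conjugating enzymes and suppliers of their cosubstrates 11 were above 0, with 2 past 2-fold brighter and 0 past 2-fold dimmer (median 0.03). Papss2, which makes the sulfate donor that SULT enzymes use, was at 11.13 impaired and 9.63 wildtype (2.84-fold), and Mgst3, a membrane-bound glutathione transferase, at 8.76 impaired and 7.48 wildtype.

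Transporters that carry drugs and their conjugates went both ways, with 10 of 17 above 0 and 0 past 2-fold in either direction (median 0.12). Abcc3 (8.48 in the impaired sample and 7.53 in wildtype) and Abcc2 (8.16 impaired and 7.32 wildtype), which export conjugates, were brighter in the impaired sample. Abcb1b and Abcb1a, which encode P-glycoprotein, were dimmer there, at 8.36 impaired and 9.14 wildtype and 11.74 impaired and 11.99 wildtype. T cells of the gut are known to carry P-glycoprotein, and which cells gave these signals was not measured. Of 6 listed electron donors to P450 enzymes the 4 measured were Cyb5a, Cyb5b, Cyb5r3 and Fdx1. Cyb5r3 differed by 0.38 and Cyb5a by -0.37, and the median of the 4 was 0.09. P450 oxidoreductase (Por) was not among the 4, so this median does not describe it.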

How the data were processed

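RNA of 2 TR1 cell samples was measured on 1 Affymetrix array each. The deposited values are log2 RMA signals of 34760 probe sets, made by the authors with affy and RMA per the submitters' processing notes. Versions, build and array annotation were not given in the sources used here. Signals run from 3.84 to 14.66 (median 6.92) in the impaired and from 3.86 to 14.63 (median 6.89) in the wildtype sample. Probe sets were named through GEO's platform annotation: 21640 had 1 symbol, 1321 several and 11799 none here. A gene with several probe sets was represented by the brightest. All 122 members matched RefSeq by Entrez identifier, with 0 symbols changed. No floor was applied. The log2 difference (impaired minus wildtype) was counted by size, beside the same count over all named genes, and precision is limited by the number of arrays. Members, classes and lists were chosen with earlier results of these data known. The classes come from background knowledge. Every member could be named; of each other list, up to 4 genes with the largest absolute difference and the 2 brightest were, and Alb was named after its values were seen. Counting was tested on simulated data. Alternatives were intensity-dependent centring (lowess), an offset of 32 on the linear scale, averaging all probe sets per gene, floors at the median (6.91) and 75th percentile (8.86) of probe sets, a 1.5-fold line, a narrower intestinal class and leaving out members that share a probe set. Python 3.11.15, numpy 2.4.6, pandas 2.3.3, statsmodels 0.14.6 and matplotlib 3.10.9 were used.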

Additional observations from a re-analysis of the deposited data

How the results depend on the processing

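No setting turned the direction of the intestinal or the liver-restricted median, where members of the class remained. The median of the members in neither class was not followed through all settings. The distance between the intestinal and liver-restricted medians, 0.57, became 0.46 with 32 added on the linear scale and 0.89 with a floor at the median probe set, which left 1 liver-restricted member. With that floor the median was 0.57 over all members and 0.83 over intestinal ones, of which 4 passed only through the impaired sample, so these higher medians are partly built in. With a floor at the 75th percentile these were 0.50 and 0.76, and 0 liver-restricted members remained, so no distance could be given. A 1.5-fold line took the members brighter in the impaired sample to 20, against 6 at 2-fold, and those dimmer to 1, against 0. After centring 7 members were past 2-fold, with Cyp3a13 added, and 3 members changed sign. With the offset, which shrinks dim differences by construction, 4 were past 2-fold, and Sult1d1 and Ces2e lay at 0.97 and 0.96. The offset moved 28 members by 0.1 or more, and centring and averaged probe sets moved 0. The setting planned for members with near-identical proteins was not run, since no protein table was used; leaving out members that share a probe set, chosen after seeing the data, gave an intestinal median of 0.55. No paired analysis was possible because each group is 1 array.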

Other observations

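A set of 16 further probe sets named several genes, at least 1 of them of these families, and so belonged to no member. The probe set of 8 UGT1A names, which share their last exons, was at 7.91 in the impaired sample and 7.33 in wildtype. Of 3 probe sets shared by Gsta1 and Gsta2, alpha-class transferases of gut and liver, 1 was at 9.35 impaired and 8.41 wildtype, another at 9.03 impaired and 8.59 wildtype, and the dimmest at 5.61 impaired and 5.73 wildtype. Both probe sets shared by Gstp1 and Gstp2 were nearly equal, with differences of 0.01 and 0.09. A dim probe set shared by Cyp3a41a, Cyp3a41b and Cyp3a44 was at 6.98 in the impaired sample and 5.83 in wildtype, while one that also covers Cyp3a11 was at 6.51 impaired and 6.96 wildtype. The Cyp3a44 probe set of the member itself differed by -0.13, so probe sets of these near-identical genes disagree in direction.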
